A study of Mus musculus with 2 samples.

Results

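The granzyme genes Gzmc, Gzmd, Gzme, Gzmf and Gzmg and the serpin genes Serpinb9 and Serpinb9b were followed through the CD45+ cells of mouse liver metastases. They are 7 of the 56941 features in the count tables, they were taken by symbol, and each symbol matched 1 feature: Gzmc (ENSMUSG00000079186), Gzmd (ENSMUSG00000059256), Gzme (ENSMUSG00000022156), Gzmf (ENSMUSG00000015441), Gzmg (ENSMUSG00000040284), Serpinb9 (ENSMUSG00000045827) and Serpinb9b (ENSMUSG00000021403). They were picked because of measured values: in an earlier look at the same counts, several of them had the lowest ratios of KD over Ctrl among genes of CD8+ T cells, so the difference between the libraries is given here as a description only.

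C57BL/6 mice of 6 to 8 weeks of age received MC38-LM3b colorectal cancer cells into the spleen, and the liver lesions were collected 2 weeks later. The cancer cells carried either a scrambled hairpin (MC38-LM3b-shScramble, Ctrl) or a hairpin against SLAMF3 (MC38-LM3b-shSLAMF3, KD), so the knockdown was in the cancer cells and the immune cells of the hosts were not modified. Lesions of 3 mice were pooled before CD45+ cells were selected, and 1 droplet-based 3′ RNA sequencing library was made per group. Differences between the libraries therefore cannot be told apart from differences between 2 pools of mice, and no test between them was possible.

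The Ctrl library held 10416 barcodes and 67207234 unique molecular identifiers (UMIs, each standing for 1 captured RNA molecule), and the KD library held 10943 barcodes and 64444715 UMIs. After the cell filter, 9814 Ctrl and 10185 KD cells remained, with medians of 5411.5 and 4989 UMIs per cell. T cells, taken from clusters with at least 8 T cell markers such as Cd3d, Cd3e, Cd3g and Trac, numbered 2940 in Ctrl and 1526 in KD, with medians of 7091.5 and 5796 UMIs. There were 27 barcode sequences that occurred in both libraries. Of these, 8 were Ctrl T cells with 114 of the 9800 granzyme C to G UMIs of Ctrl T cells between them, and 3 were KD T cells with 0. Ly9, the gene of SLAMF3, had 12 UMIs in 161 Ctrl and 7 UMIs in 95 KD cells of the tumor or fibroblast class, which was too few to check the knockdown. Levels are given as CPM, the UMIs of a gene divided by all UMIs of the cells named and multiplied by 1000000, and all intervals in square brackets are 95% intervals that cover counting error only.

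Granzymes are serine proteases that killer lymphocytes store in granules and release, together with the pore-forming protein perforin, into the contact with a target cell. Gzma and Gzmb are the best known. Gzmc to Gzmg form a tandem cluster with Gzmb on mouse chromosome 14, are typical of strongly and repeatedly stimulated killer cells, and have no separate counterparts in people. Serpinb9 is an intracellular inhibitor that binds granzyme B irreversibly and protects killer cells, and other cells that hold it, from their own or incoming protease. Serpinb9b is its near relative in the mouse serpin cluster on chromosome 13.

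The promoters of the granzymes are shown because their likeness bears on how the 5 genes are described together. The 150 bases up to each annotated start site were read from RefSeq on build GRCm38.p6, where all 7 members were found. The processing notes of the submitters name GRCm39 for the counts, so these coordinates belong to the reference only. The stretches lie at chr14:56234658-56234807 for Gzmc, chr14:56132594-56132743 for Gzmd, chr14:56120626-56120775 for Gzme, chr14:56211408-56211557 for Gzmf and chr14:56159580-56159729 for Gzmg, all on the minus strand and directly upstream of exon 1. Capitals mark the octamer TGACGTCA, the consensus of the cAMP response element, or the 8 bases in the same place.
Gzmc: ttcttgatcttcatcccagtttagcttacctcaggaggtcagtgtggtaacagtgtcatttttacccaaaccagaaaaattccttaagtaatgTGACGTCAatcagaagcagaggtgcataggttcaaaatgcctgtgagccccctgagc
Gzmd: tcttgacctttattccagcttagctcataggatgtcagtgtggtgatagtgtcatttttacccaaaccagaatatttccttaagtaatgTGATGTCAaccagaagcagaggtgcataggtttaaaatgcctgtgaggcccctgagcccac
Gzme: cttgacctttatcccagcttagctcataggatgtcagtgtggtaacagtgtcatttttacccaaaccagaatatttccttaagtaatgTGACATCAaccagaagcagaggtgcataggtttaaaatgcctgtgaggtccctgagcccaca
Gzmf: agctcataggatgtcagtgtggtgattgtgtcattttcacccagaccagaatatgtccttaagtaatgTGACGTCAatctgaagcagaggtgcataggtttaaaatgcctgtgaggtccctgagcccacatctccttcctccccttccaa
Gzmg: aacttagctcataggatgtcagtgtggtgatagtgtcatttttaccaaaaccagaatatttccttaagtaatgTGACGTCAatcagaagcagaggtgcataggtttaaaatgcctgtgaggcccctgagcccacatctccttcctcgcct
The octamer was intact in Gzmc, Gzmf and Gzmg. Counted from 1 at its first base, Gzmd differed by C4T and Gzme by G5A. It began 57 bases before the start site in Gzmc, 82 in Gzmf and 77 in Gzmg. Over both strands, 508 of 32851 RefSeq promoters (1.55%) held the octamer in the 250 bases before the start site. All 5 promoters shared the run GAAGCAGAGGTGCATAGGTT of 20 bases just downstream of it. Aligned in pairs, they were from 86.7% (Gzmc and Gzmf) to 97.0% (Gzmd and Gzmg) identical. A match of letters is not evidence that a factor binds there.

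Since the libraries read transcripts from the 3′ end, the last 400 transcript bases decide how well the genes can be told apart. Gzmd and Gzme were 95.8% identical there, whereas Gzmc was between 58.4% and 62.2% identical to the other 4. No stretch of 90 bases was shared exactly by any pair. The split of counts among Gzmd to Gzmg remains less certain than their sum, and the sum is therefore given beside the single genes.

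The inhibitor promoters are shown in the same way, from chr13:33004391-33004540 for Serpinb9 and chr13:33027264-33027413 for Serpinb9b, both on the plus strand, with capitals for TTTCACTTTC or the 10 bases in its place.
Serpinb9: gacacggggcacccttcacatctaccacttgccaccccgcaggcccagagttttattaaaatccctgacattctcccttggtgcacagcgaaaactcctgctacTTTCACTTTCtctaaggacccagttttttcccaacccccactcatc
Serpinb9b: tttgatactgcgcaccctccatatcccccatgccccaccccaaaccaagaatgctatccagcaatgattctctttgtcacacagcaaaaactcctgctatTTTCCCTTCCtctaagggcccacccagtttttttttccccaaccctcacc
On the other strand, the capitals of Serpinb9 read as 2 copies of GAAA with any 2 bases between them, a core of interferon response elements. In the same bases before the start site that were searched for the octamer, 978 of the 32851 promoters (2.98%) held this core on either strand. Counted from 1 at the first capital, Serpinb9b differed from Serpinb9 by A5C and T9C and held no match. These 2 promoters were 70.3% identical.

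Granzymes C to G were found in few T cells, in large amounts, and mostly in Ctrl. In Ctrl T cells, Gzmc had 2628 UMIs, Gzmd 1950, Gzme 2213, Gzmf 2732 and Gzmg 277. In KD T cells they had 85, 79, 39, 300 and 1. The sum of the 5 was 398 CPM in Ctrl and 46.1 in KD, a log2 ratio of KD over Ctrl of -3.11 [-3.24, -2.98]. Every one of the 5 was lower in KD.

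The size of the difference varied among them. Gzme had a log2 ratio of -4.65 [-5.15, -4.20], Gzmc of -3.78 [-4.11, -3.47] and Gzmd of -3.45 [-3.80, -3.13]. Gzmf differed least, at -2.02 [-2.19, -1.84]. Gzmg rested on a single KD molecule, which leaves its ratio between -12.25 and -4.45. The sizes and their order depend on 1 KD cell, which held 62 of the 79 Gzmd, 183 of the 300 Gzmf and 19 of the 39 Gzme UMIs. Without the leading cell of each library, the ratios were -5.61 [-6.39, -4.93] for Gzmd, -5.58 [-6.29, -4.95] for Gzme, -4.07 [-4.45, -3.72] for Gzmc and -3.33 [-3.61, -3.06] for Gzmf, and Gzmg had 0 UMIs in KD. Gzmf remained the least different of the 4 with KD molecules, while Gzmd passed below Gzmc. Among all 15066 genes with at least 20 UMIs in T cells of both libraries together, 193 (1.28%) were at least 2-fold lower in KD, and 6 of the 7 members were among them. As the members were picked on this contrast, nothing is read from that count.

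The serpins differed from each other. Serpinb9b had 1187 UMIs in Ctrl T cells and 143 in KD, or 48.2 and 13.1 CPM, with a log2 ratio of -1.88 [-2.14, -1.63]. Serpinb9 had 5173 and 1978 UMIs, or 210 and 181 CPM, with a log2 ratio of -0.22 [-0.29, -0.14]. It was the member that was not 2-fold lower, and 3365 of the 15066 genes had a ratio at or below its own. Restricted to CD8+ T cells (cells with UMIs of Cd8a or Cd8b1 but none of Cd4, 2469 in Ctrl and 876 in KD), Serpinb9 stood at 218 CPM in Ctrl and 217 in KD, so that no difference was detectable there, while Serpinb9b stood at 52.4 and 14.7 CPM. The T cells of KD held relatively more cells with a Cd4 UMI and no CD8 UMI (378, against 153 in Ctrl), in which Serpinb9 was at 75.3 and 66.7 CPM.

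Of the other granule genes in T cells, the tryptase Gzma went the opposite way, with 291 CPM in Ctrl and 1910 in KD (log2 ratio 2.71 [2.68, 2.75]). Gzmb was at 833 and 744 CPM (-0.16), and the perforin gene Prf1 at 399 and 231 CPM (-0.79). Gzmn, the remaining granzyme of the chromosome 14 cluster that was looked at, had 0 UMIs in Ctrl T cells and 1 in KD. Leaving Gzmn aside, Prf1 had the lowest ratio among the 12 other granule genes that were listed.

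Across cell classes, T cells had the highest level of granzymes C to G in Ctrl. In Ctrl the sum was 398 CPM in T cells, 64.3 [52.9, 77.6] in an unnamed cluster of 171 cells led by Ifng, Gzma and Ccl5, 52.8 [42.2, 65.3] in a cluster with natural killer (NK) markers and 38.1 [22.6, 60.3] in an unnamed cluster of low-UMI cells led by Setbp1. The intervals of the last 3 overlapped from neighbour to neighbour. The cluster led by Ifng met 0 markers of any class, and the B cell genes Ighd and Ebf1 were also among its leading genes. Its cells had a median of 1.74 times the UMIs of their library median. The cluster led by Setbp1 met the T cell markers Cd3e, Cd8a, Cd5 and Cd28, and was left unnamed for its low UMI counts. Endothelial cells had 26.1 CPM, conventional dendritic cells (cDCs) 13.8, granulocytes 5.45, B cells 4.85, tumor or fibroblast cells 3.45, macrophages 2.37, plasmacytoid dendritic cells 2.04 from 1 UMI, and 33 Kupffer cells had 0 UMIs. In KD, T cells had 46.1 CPM and the NK-marker cluster 19.3 [14.7, 24.9]. In 2 classes a single cell made the level: 29 of the 30 UMIs of endothelial cells and 30 of the 38 UMIs of cDCs lay in 1 cell each.

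Free RNA in a cell suspension gives UMIs in droplets of cells that do not express a gene, so the share of cells with a UMI was also taken in cells that should lack these granzymes. Among Ctrl cells, 1.45% of macrophages, 1.28% of granulocytes and 1.47% of B cells held a granzyme C to G UMI, at median depths of 5597, 2149 and 2565 UMIs. In KD the shares were 0.0967%, 0.0900% and 0.115%, at medians of 7438, 2812 and 2583. Against this, 431 of 2940 Ctrl T cells (14.7% [13.4, 16.0]) and 35 of 1526 KD T cells (2.29% [1.60, 3.18]) held one. After each cell was thinned to 1500 UMIs, the T cell shares were 7.91% and 1.06%. T cell shares thus stood above those of macrophages, granulocytes and B cells in either library. In KD they did not stand above the NK-marker cluster, where 21 of 737 cells (2.85% [1.77, 4.32]) held one.

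**Figure D1:**
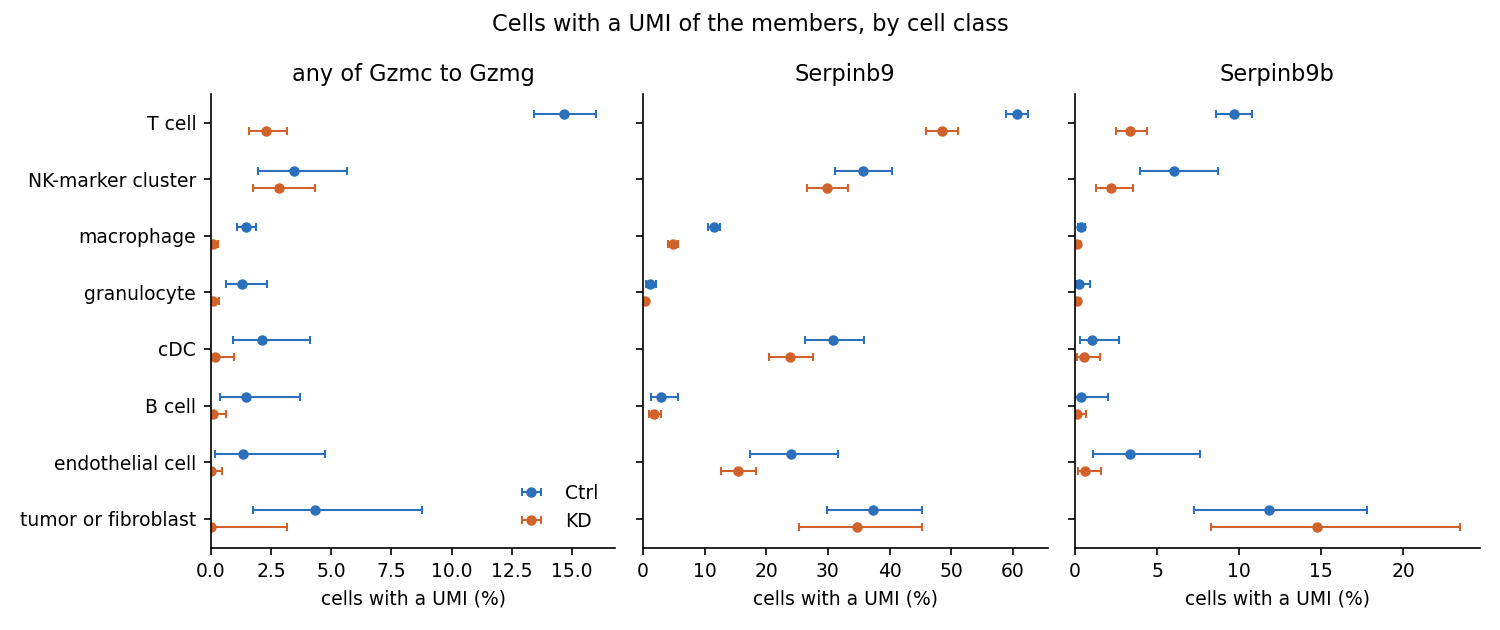
Percent of cells with at least 1 UMI of any of Gzmc to Gzmg, of Serpinb9 and of Serpinb9b, by cell class (rows, 8 named classes) in Ctrl (blue) and KD (orange), with exact 95% intervals as bars, or up to 3 cells where a count is 0. The highest granzyme C to G share is that of Ctrl T cells (14.7%), whereas Serpinb9 is spread over T cells, NK-marker cells, cDCs, endothelial cells and tumor or fibroblast cells.

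The cluster with NK markers showed a granzyme make-up that differed from that of CD8+ T cells. It held 432 Ctrl and 737 KD cells, and was led by Lef1 and Tcf7, genes of resting lymphocytes, as well as by the NK receptor gene Ncr1, so that it is called here by its markers. Most of its cells, 266 in Ctrl (61.6%) and 563 in KD (76.4%), held a UMI of Cd3d, Cd3e or Cd3g. Gzmc had 85 UMIs in 15 of the Ctrl cells and 59 UMIs in 21 of the KD cells. Gzmd, Gzme, Gzmf and Gzmg had 0 UMIs in both libraries, each with an upper limit of 3 UMIs per library. Each cell of this cluster with a granzyme C to G UMI thus held Gzmc alone.

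Gzmc alone was also seen in the part of this cluster without any Cd3d, Cd3e or Cd3g UMI and with an Ncr1 or Klrb1c UMI. It had 44 UMIs in the 111 Ctrl cells of this part and 23 in the 121 KD cells. Among Ctrl T cells, by comparison, 7 of the 98 cells with 5 or more Gzmc UMIs held no other granzyme of the 5, against 5 of 5 such cells of the NK-marker cluster in Ctrl and 6 of 6 in KD. T cells with a Cd4 UMI and no CD8 UMI also held mostly Gzmc. In Ctrl they had 62 Gzmc UMIs, 47 of them in 1 cell, with 0 of Gzmd and Gzme, 6 of Gzmf and 1 of Gzmg. In KD they had 9 Gzmc UMIs and 0 of Gzmd, Gzme, Gzmf and Gzmg.

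Serpinb9 was the most widely detected member. In Ctrl its order ran from 232 CPM [209, 257] in the NK-marker cluster and 210 in T cells, through 137 [124, 152] in cDCs and 126 [110, 144] in the cluster led by Ifng, to 99.6 [73.2, 132] in the one led by Setbp1, 76.6 [61.5, 94.4] in endothelial cells and 47.3 [38.3, 57.8] in tumor or fibroblast cells. Neighbours in this order had overlapping intervals, except T cells and cDCs, and endothelial cells and tumor or fibroblast cells. Kupffer cells had 28.2 CPM from 7 UMIs, macrophages 23.3, plasmacytoid dendritic cells 22.5, B cells 13.3 and granulocytes 4.91. In KD the order began with T cells (181 CPM) and the NK-marker cluster and the cluster led by Setbp1 (152 each), followed by the cluster led by Ifng (74.5), cDCs (68.0), endothelial cells (35.4) and tumor or fibroblast cells (33.3). NK-marker cells without CD3 UMIs reached 467 CPM [405, 536] in Ctrl and 304 [258, 357] in KD.

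In several classes outside T cells, Serpinb9 was lower in KD by more than in T cells. Its log2 ratio was -1.61 [-1.86, -1.38] in macrophages (618 and 185 UMIs), -1.11 [-1.50, -0.72] in endothelial cells (88 and 152 UMIs) and -1.01 [-1.23, -0.80] in cDCs (377 and 354 UMIs). Each of these 3 intervals lay below that of T cells. The NK-marker cluster as a whole had -0.61 [-0.81, -0.41], but its make-up differed between the libraries. Its cells with a CD3 UMI had 129 and 110 CPM (-0.23 [-0.53, 0.08]), and its cells without one and with an Ncr1 or Klrb1c UMI, 25.7% of the cluster in Ctrl and 16.4% in KD, had -0.62 [-0.93, -0.30]. In tumor or fibroblast cells the interval included 0 (-0.51 [-1.06, 0.03]). The part of free RNA in these values was not tested. Over all kept cells the level was 109 CPM in Ctrl and 54.7 in KD, which also carries the different make-up of the libraries. The macrophage class mixed several clusters in unequal numbers (2450 Ctrl and 1521 KD cells in the largest, 382 and 1146 in one led by Vcan and Chil3), and their part in the difference was not tested.

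Serpinb9b had a narrower pattern. In Ctrl it was highest in the cluster led by Ifng (59.1 CPM [48.1, 71.8]), T cells (48.2) and the NK-marker cluster (39.8 [30.6, 50.8]), whose intervals overlapped from neighbour to neighbour, and then in tumor or fibroblast cells (18.7 [13.2, 25.7]). The cluster led by Setbp1 had 12.7 CPM, endothelial cells 6.09, cDCs 4.37, B cells 1.21, granulocytes 1.09 and macrophages 0.565, and none was found in Kupffer cells or plasmacytoid dendritic cells. In tumor or fibroblast cells alone was the KD value the higher one among classes with at least 20 UMIs in each library, at 27.9 CPM against 18.7 from 36 and 38 UMIs, and the interval of that log2 ratio included 0 (0.57 [-0.13, 1.27]).

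Very few cells carried the granzyme totals. Of the 9800 granzyme C to G UMIs in Ctrl T cells, 24 cells (0.816% of T cells) held 50% between them. The leading cell held 411 UMIs (4.19%), the leading 10 held 31.2%, and the leading 50 held 69.9%. At the other end, 126 cells held a single UMI, 141 held 10 or more, and 53 held 50 or more. In the highest cells these granzymes were a visible part of all RNA: 4.15% of the 7646 UMIs of the cell with the fifth highest granzyme count.

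The members differed in how concentrated they were. The number of Ctrl T cells that held 50% of the UMIs was 19 for Gzmc, 16 for Gzmd, 25 for Gzme, 17 for Gzmf and 2 for Gzmg. For Serpinb9b it was 44, and for Serpinb9 402. A single cell held 99 of the 277 Gzmg UMIs (35.7%), and Gzmg was found in 23 cells in all. No Serpinb9 cell held more than 27 UMIs.

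**Figure D2:**
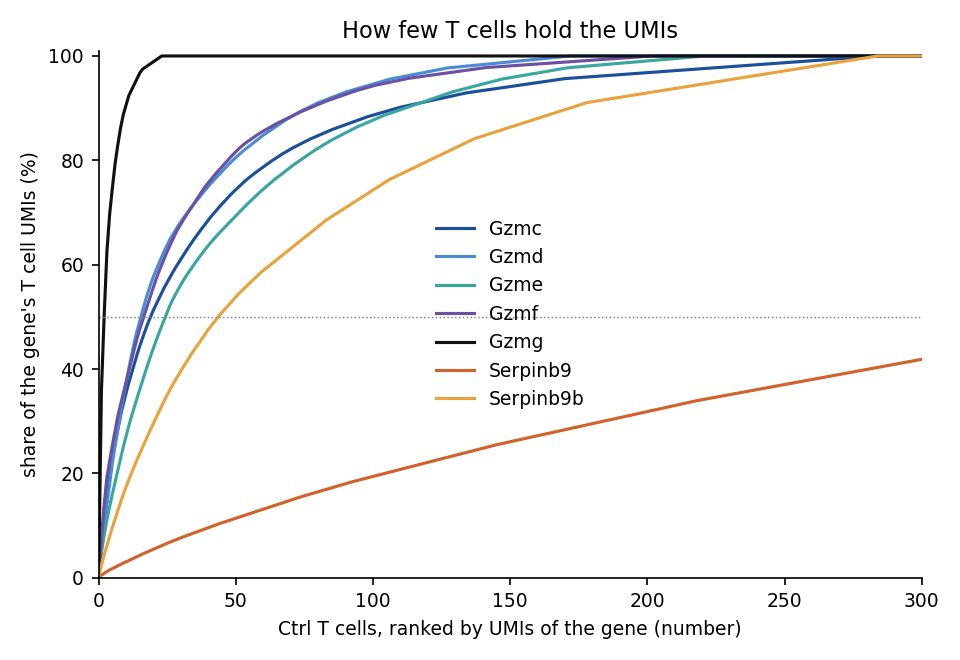
Cumulative percent of each member's UMIs (vertical) held by the Ctrl T cells ranked by their UMIs of that gene (horizontal, number of cells, shown up to 300 of 2940). The dotted line marks 50%, which the curves of Gzmc to Gzmf cross between 16 and 25 cells, Gzmg at 2 and Serpinb9b at 44, while Serpinb9 is still below it at the right edge.

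The leading Ctrl cells did not share 1 profile. The first held 162 Gzmc, 79 Gzmd, 55 Gzme, 75 Gzmf and 40 Gzmg UMIs. The second held 43, 95, 67, 199 and 0. The third held 180 Gzmc and 113 Gzme UMIs, but 1 of Gzmf. All 5 genes were present in the first, yet Gzmf led the second and was nearly missing in the third.

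In KD a single cell held 285 of the 504 UMIs (56.5%), made up of 20 Gzmc, 62 Gzmd, 19 Gzme, 183 Gzmf and 1 Gzmg, which was the only Gzmg molecule among KD T cells. It held 6 Serpinb9 and 0 Serpinb9b UMIs. The next cells held 46, 41 and 39 UMIs, and the one with 41 held Gzmc only and lay in a small sub-cluster led by NK receptor genes. The single-cell share of the KD total means that the ratio between the libraries depends on this cell: without the leading cell of each library the log2 ratio of the sum was -4.25, and without the leading 10 it was -6.12. The leading 10 held 91.5% of the KD UMIs and 31.2% of the Ctrl UMIs. Leaving them out therefore lowers the ratio by construction, and -6.12 is not a better estimate of the difference.

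More than 50% of the Ctrl T cells with any of the 5 granzymes held 2 or more of them. Of the 431 Ctrl T cells with any, 205 held 1 of the genes, 87 held 2, 53 held 3, 66 held 4 and 20 held all 5. The share with 2 or more was 52.4% in Ctrl and 28.6% (10 of 35 cells) in KD. In cells thinned to 1500 UMIs it was 47.2% and 18.8% (3 of 16). Since 126 Ctrl cells held a single granzyme UMI and could not have shown 2 genes, the share depends on depth.

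Pairs differed in how tightly they went together. Of 172 cells with Gzmd, 144 (83.7% [77.3, 88.9]) also held Gzme, which was found in 7.52% of all Ctrl T cells. Over the 2940 cells, the Pearson correlation of log2 UMIs per 10000 was 0.84 for this pair, 0.68 for Gzmc with either of them, 0.65 for Gzmc with Gzmf and 0.64 for Gzmd with Gzmf. These cells share 1 library and its free RNA and differ in depth, and the first pair is also the one with the most alike transcript ends. Gzmg was nested in the others: 20 of its 23 cells (87.0%) held all of Gzmc, Gzmd, Gzme and Gzmf.

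Gzmc was the member most often found alone, in 113 of its 284 cells (39.8%), against 12 of 172 (6.98%) for Gzmd, 34 of 221 (15.4%) for Gzme and 43 of 202 (21.3%) for Gzmf. Most of that came from cells with few molecules. Among cells with 5 or more UMIs of the gene, 7 of 98 held Gzmc alone, 1 of 80 Gzmd, 1 of 104 Gzme and 3 of 94 Gzmf. The gene with most UMIs in a cell also varied. Among 193 Ctrl T cells with 5 or more granzyme C to G UMIs it was Gzmf in 65, Gzme in 54, Gzmc in 46, Gzmd in 27 and Gzmg in 1, and among 11 such KD cells it was Gzmf in 8.

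The serpins were tied to the granzymes to unequal degrees. Serpinb9b was present in 100 of 284 Gzmc cells (35.2% [29.7, 41.1]) and in 72 of 172 Gzmd cells (41.9% [34.4, 49.6]), against 9.66% of all Ctrl T cells. Serpinb9 was present in 88.7% of Gzmc cells against 60.7% of all T cells. Over cells, Serpinb9b correlated with the 5 granzymes at 0.18 to 0.39 and Serpinb9 at 0.08 to 0.14, which in counts this sparse is weak. The deeper counts of granzyme cells, given below, move with these shares. In KD T cells, Serpinb9b was present in 1 of 16 Gzmc cells (6.25% [0.158, 30.2]) and in 3 of 7 Gzmd cells (42.9% [9.90, 81.6]), against 3.34% of all.

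**Figure D3:**
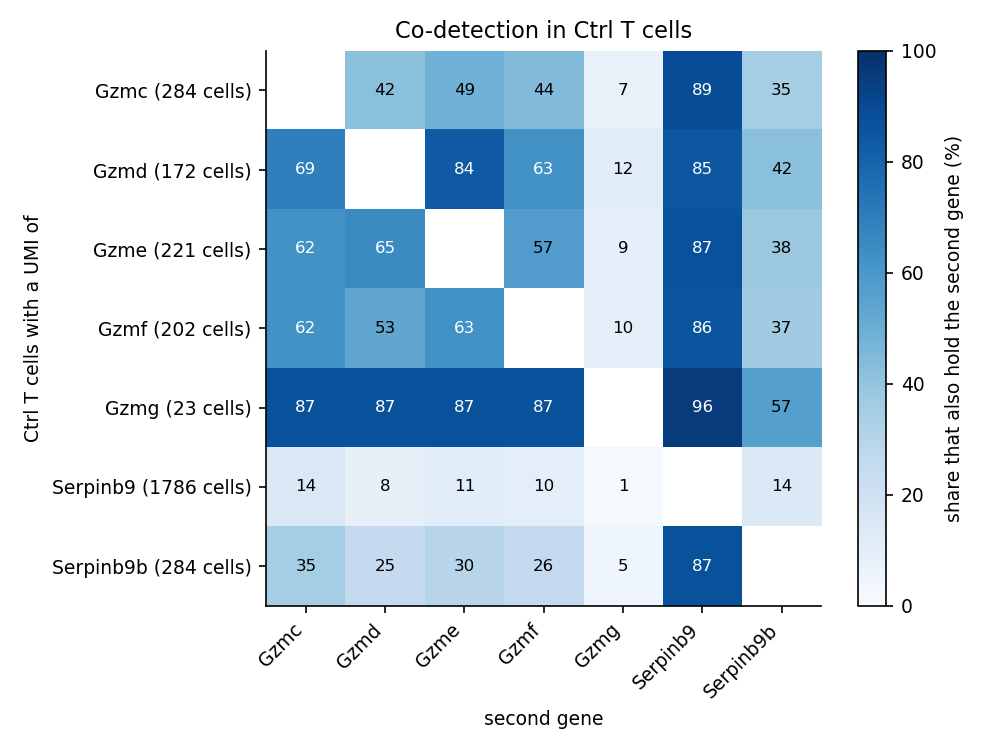
Of the Ctrl T cells with a UMI of the gene in each row (number of cells in the label), the percent that also held the gene in each column. Gzmd and Gzme overlap most among the larger sets, Gzmg cells (23) hold nearly all the others, and Serpinb9b is present in 35.2 to 56.5% of the cells of each granzyme.

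To see which T cells held them, carriers were defined as T cells with 2 or more granzyme C to G UMIs. There were 305 in Ctrl (10.4% of T cells) and 21 in KD (1.38%). T cells were clustered again without using the members. In Ctrl, 125 of 716 CD8+ cycling cells (17.5% [14.7, 20.4]), 82 of 806 CD8+ exhausted cells (10.2% [8.17, 12.5]) and 78 of 463 cells of an unnamed sub-cluster (16.8% [13.6, 20.6]) were carriers. The last was led by the replication genes Ung, Mcm2, Cdca7 and Mcm3, with Gzmc, Serpinb9b and Gzme also among its 10 leading genes. CD8+ effector cells, marked by Gzma, Gzmk, Klf2 and Ly6c2, held 3 carriers in 508 cells (0.591% [0.122, 1.72]).

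Carriers were rare or missing in the remaining sub-clusters with T cell names. There was 1 among 171 CD4+ T cells, 2 among 74 regulatory T cells (Treg) and 0 among 87 naive T cells, which allows a share of up to 3.45%. A sub-cluster of 79 cells in which macrophage genes led held 11 carriers, and one of 9 cells led by granulocyte genes held 3. Of all Ctrl carriers, 94.1% were CD8+ by the UMI gate. The study's exhausted and cycling names were rebuilt here from markers and may differ from its own. The CD8+ exhausted name rested on 3 of 9 listed markers, Havcr2, Lag3 and Tnfrsf9.

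In KD the carriers lay mostly in the same sub-clusters, at lower shares. They were 6 of 304 CD8+ cycling cells (1.97% [0.728, 4.25]), 3 of 180 CD8+ exhausted cells (1.67% [0.345, 4.79]) and 7 of 154 cells of the unnamed sub-cluster (4.55% [1.85, 9.14]). Of 287 CD8+ effector cells 0 were carriers, which allows a share of up to 1.05%. Within each of the first 3 sub-clusters, the KD share lay below the Ctrl interval, so a lower share was also seen within sub-clusters.

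**Figure D4:**
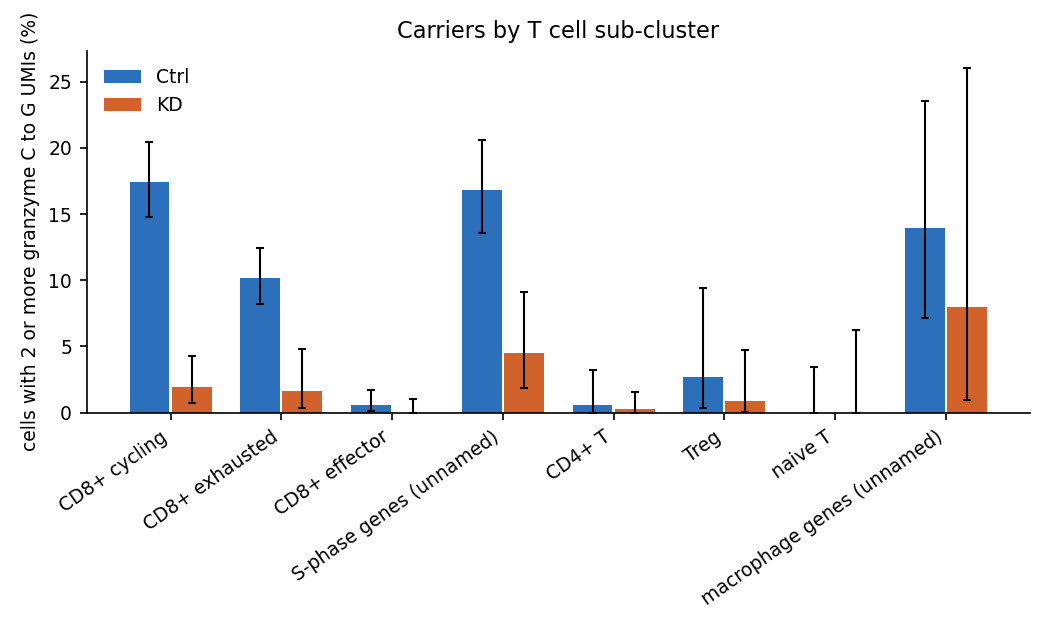
Percent of cells with 2 or more granzyme C to G UMIs (vertical) in each T cell sub-cluster with at least 25 cells per library, in Ctrl (blue) and KD (orange), with exact 95% intervals, or up to 3 cells where a count is 0. Ctrl carriers are found in the CD8+ cycling (17.5%), CD8+ exhausted (10.2%) and S-phase gene (16.8%) sub-clusters, and at 0.591% in CD8+ effector cells.

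Levels within sub-clusters were ordered differently from the shares of carriers. In Ctrl, CD8+ cycling cells had the highest share but the lowest level of the 3 sub-clusters with most carriers. The interval of that share, [14.7, 20.4], overlapped that of the unnamed sub-cluster, [13.6, 20.6]. Few cells weighed on the levels. In CD8+ exhausted cells, 411, 378 and 317 of the 2772 UMIs lay in 1 cell each. In CD8+ cycling cells, 404, 374 and 249 of the 3809 UMIs did so. The depth of the 3 sub-clusters differed, with medians of 13134.5 UMIs in CD8+ cycling, 9177 in unnamed and 6511.5 in CD8+ exhausted cells. After thinning, the share with a granzyme C to G UMI was 14.1% [11.1, 17.6] in unnamed and 12.3% [9.99, 14.9] in CD8+ cycling cells. It was 7.59% [5.85, 9.64] in CD8+ exhausted cells. CD8+ cycling cells thus no longer led by this share, though their interval overlapped that of the unnamed cells. The part of depth in the levels was not tested. The granzyme C to G sum was 398 CPM in CD8+ cycling cells of Ctrl and 97.2 in those of KD, where 285 of the 349 UMIs came from the single leading cell. It was 507 and 11.7 CPM in CD8+ exhausted cells, 589 and 62.3 in the unnamed sub-cluster, and 11.7 and 1.57 in CD8+ effector cells. Of the 277 Gzmg UMIs in Ctrl, 219 were in CD8+ exhausted cells, although only 9 cells of that sub-cluster held any.

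Among the 4 largest sub-clusters of Ctrl, Serpinb9b levels had the same order as the granzyme C to G sum, and Serpinb9 levels did not. In KD the order of the levels was not shared. The granzyme sum was higher in CD8+ cycling than in CD8+ exhausted cells, but 285 of its 349 UMIs in cycling cells lay in 1 cell. Serpinb9b was lower in CD8+ cycling cells, but the intervals overlapped ([8.19, 15.5] CPM from 41 UMIs and [10.2, 25.1] from 21). Serpinb9b was at 46.2 and 11.4 CPM in CD8+ cycling cells of Ctrl and KD, at 59.8 and 16.4 in CD8+ exhausted cells, at 74.5 and 39.7 in the unnamed sub-cluster, and at 10.8 and 8.63 in CD8+ effector cells. Serpinb9 was at 210 and 204, 248 and 273, 214 and 191, and 220 and 242 CPM in the same 4. Its levels were thus of the same size in CD8+ effector cells, which held almost no granzyme C to G, and in the sub-clusters that did. CD4+ T cells had less Serpinb9, at 84.1 CPM in Ctrl and 103 in KD.

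The carriers were then compared with the other CD8+ T cells of Ctrl, as 287 against 2182 cells. Both kinds came from 1 library, so the ratios below describe these cells and have counting intervals only. Carriers had a median of 12136 UMIs per cell and the others 7270.5, and 76.7% of carriers and 57.0% of the others held an Mki67 or Top2a UMI, a share that moves with depth. Cells marked as likely doublets were 6.97% and 5.73%. Transcripts of other cell types did not stand out in carriers: C1qa of macrophages was at 45.2 and 44.5 CPM, Lyz2 of myeloid cells at 53.0 and 96.2, and S100a8 of granulocytes at 7.49 and 14.2. Xist, the RNA of female cells, had a UMI in 98.6% of carriers and 96.7% of the others, and the Y-linked genes Ddx3y, Eif2s3y, Kdm5d and Uty had at most 6 UMIs each in either set.

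Of 9394 genes with at least 20 UMIs in carriers, 80 (0.852%) were at least 2-fold higher in carriers and 81 (0.862%) at least 2-fold lower, with a median log2 ratio of 0.0115. The 5 granzymes that define the carriers were left out of these counts. A limit set in the carriers drops genes that are low there: with at least 20 UMIs in both sets together, a limit chosen after the data were seen, 140 of 13557 genes (1.03%) were 2-fold higher and 498 (3.67%) 2-fold lower, with a median of -0.02. Serpinb9b stood far above that background, at 199 CPM in carriers and 22.6 in the others (log2 ratio 3.14 [2.96, 3.31]). Serpinb9 differed less, at 292 and 203 CPM (0.52 [0.43, 0.62]). In KD, with 17 carriers, the log2 ratios were 3.82 [3.16, 4.44] for Serpinb9b and 0.64 [0.26, 1.00] for Serpinb9. The KD ratio of Serpinb9b rests on 30 UMIs in few carriers. Of these, 15 lay in 5 of the 12 cells with 2 to 9 granzyme C to G UMIs and 15 in 2 of the 4 cells with 10 to 49. Among the 6 other genes named Serpinb9c to Serpinb9h, none had a UMI in these cells.

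Granule genes went in both directions. Of the list of 12, 10 passed the limit of 20 UMIs, 1 was at least 2-fold higher (Gzmb) and 1 at least 2-fold lower (Gzma), and their median was -0.20. Under the limit over both sets, Gzmm was also 2-fold lower, from 4 UMIs in carriers, and the median was -0.33. Gzmb was at 1673 CPM in carriers and 713 in the others (1.23 [1.19, 1.27]), and Prf1 at 718 and 369 (0.96 [0.89, 1.02]). Gzma was at 42.8 and 344 CPM (-3.01 [-3.24, -2.78]), and Gzmk at 62.6 and 105 (-0.75). Srgn, the granule proteoglycan, and Nkg7, a granule membrane protein, were nearly level (-0.06 and -0.03). In KD carriers Gzmb (0.83 [0.66, 0.99]) and Prf1 (1.42 [1.18, 1.65]) were also higher and Gzma lower (-0.88 [-1.06, -0.70]).

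Protease inhibitors of other kinds were in part higher. Of the list of 14, 7 passed and none reached 2-fold, with a median of 0.34. Serpinb6b, another intracellular serpin of killer cells, was nearest, at 528 and 266 CPM (0.99 [0.91, 1.07]). Serpinb6a was at 0.58 and the cystatin gene Cstb at 0.40, whereas Serpina3g was at -0.49.

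In the lists of cell cycle, exhaustion, IL-2 and tissue residence genes, with at least 20 UMIs in carriers, medians lay between -0.36 and 0.31. Under this limit no gene of these lists was 2-fold higher in carriers and 2 were 2-fold lower. For the 10 cell cycle genes, none reached 2-fold and the median was 0.31, with Cdk1 at 0.59 and Mki67 at 0.01. For the 9 exhaustion genes, none reached 2-fold and the median was -0.21, with Tnfrsf9 at 0.54, Havcr2 at 0.29 and Tox, a regulator of exhaustion, at -0.58. For the IL-2 and IL-15 signalling list, 11 of 12 passed with a median of -0.21, 0 were 2-fold higher and Bcl2, a survival gene, was 2-fold lower (-1.59 [-1.90, -1.30]). Il2ra, the high-affinity IL-2 receptor chain, was just under that limit (0.98 [0.71, 1.24]), and Il2rb was at 0.29. Of the tissue residence list, 6 of 10 passed with a median of -0.36 and Xcl1, a chemokine, was 2-fold lower (-1.74), and Itgae had 2 UMIs in all carriers. With the limit over both sets, 2 of 9 tissue residence genes were 2-fold lower (22.2%, against 3.67% of all genes). These were Xcl1 and Itgae, and the median of the list was -0.44.

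The transcription factor gene Irf8 was the only one of 12 measured killer cell factors that was 2-fold higher, at 499 and 239 CPM (1.06 [0.98, 1.14]), with a median of -0.18 over the list. Tcf7 and Id3 did not reach the limit in carriers, and with the limit over both sets they were 2-fold lower and the median of all 14 was -0.23. Tcf7, the factor of naive and stem-like T cells, had 4 UMIs in carriers and 461 in the others, a ratio of -4.55 [-6.44, -3.19]. Eomes (0.00) and Tbx21 (-0.04) were level. Of 7 measured cytokine genes, Spp1, the gene of osteopontin, was higher (542 and 200 CPM, 1.44 [1.36, 1.52]) and Xcl1 and Ccl5 (-1.49 [-1.54, -1.45]) were lower, while Ifng was at 0.11 and the median was -0.17. In KD carriers, Ifng was lower (-1.25 [-1.80, -0.75]). Of 8 measured NK-type receptor genes, the median was -0.43, Cd7 was 2-fold lower (-1.90) and the signalling chain gene Fcer1g was highest (0.98), although in KD it was at -0.44 [-1.18, 0.21]. Ncr1 and Klrb1c had 1 and 2 UMIs in carriers.

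Ranked over all genes by the fixed rule, the 10 highest in carriers apart from the members were Cd70, Mt2, Nebl, Unc13b, Mt1, Ly6a2, Spp1, Tubb6, Mt3 and Gipc2. Cd70, a ligand of the tumor necrosis factor family, was present in 25.1% of carriers and 5.73% of the others (2.02 [1.68, 2.35]). Among them were 3 metallothionein genes, which encode metal-binding proteins: Mt2 (1.85), Mt1 (1.61) and Mt3 (1.31). The 5 lowest were Ifi27l2a, an interferon-induced gene (-2.02), Atp10d, Arhgap26, Bcl2 and Ccl5. In KD, with 17 carriers, 6 of the 10 highest genes had an interval above 0 and 4 an interval that included 0. Of the latter, Cd70 was at 0.24 [-2.83, 2.16] from 2 UMIs and Ly6a2 at -0.82 from 1 UMI. Of the 5 lowest genes, 3 had an interval below 0. In KD carriers Spp1 (1.52 [1.18, 1.85]), Mt1 (1.53 [0.83, 2.16]) and Irf8 (1.37 [1.01, 1.71]) were higher too, and Bcl2 was not lower (0.15 [-0.40, 0.66]).

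Within CD8+ cycling cells alone, the sub-cluster with most carriers (120 carriers and 566 others by the CD8 gate), the main values were kept in sign. Serpinb9b was at 153 and 19.0 CPM (3.01 [2.71, 3.31]), Gzmb at a log2 ratio of 1.11, Prf1 at 0.83, Irf8 at 0.99 and Gzma at -2.20. The listed cell cycle genes went in both directions there. Mki67 (-0.32 [-0.45, -0.20]), Stmn1 (-0.38 [-0.46, -0.31]) and Pclaf (-0.15 [-0.24, -0.06]) were lower in carriers, and Cdk1 was higher (0.21 [0.07, 0.34]). The intervals of Tyms, Mcm3, Pcna, Birc5, Top2a and Ccnb2 included 0.

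The inhibitor and granule genes were graded over the number of granzyme C to G UMIs in a cell. CD8+ T cells of Ctrl were split into 2068 cells with 0, 114 with 1, 154 with 2 to 9, 83 with 10 to 49 and 50 with 50 or more. Serpinb9b went from 19.9 CPM through 60.4, 113 and 172 to 436 CPM, and the share of cells with a Serpinb9b UMI from 6.91% in the first group to 66.0% [51.2, 78.8] in the last. Serpinb9 went from 198 CPM in the first group through 271, 269 and 288 to 351, so it changed far less. The median depth of the cells also grew, from 7111 to 15068 UMIs, and its part in these values was not tested beyond thinning. With each cell thinned to 1500 UMIs, the share with Serpinb9b went from 1.94% [1.39, 2.63] in the first group to 38.0% [24.7, 52.8] in the last, and the share with Serpinb9 from 24.3% to 34.0% [21.2, 48.8].

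Gzma went the other way. It was at 358 CPM in cells without granzymes C to G, at 149, 77.4 and 18.6 CPM in the next 3 groups, and had 0 UMIs in the 50 cells with 50 or more, where a count of 0 allows up to 3.88 CPM. Gzmb went from 695 to 2917 CPM and Prf1 from 365 to 1229 CPM. Gzmk was at 105 CPM in the first group and 44.0 in the last.

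**Figure D5:**
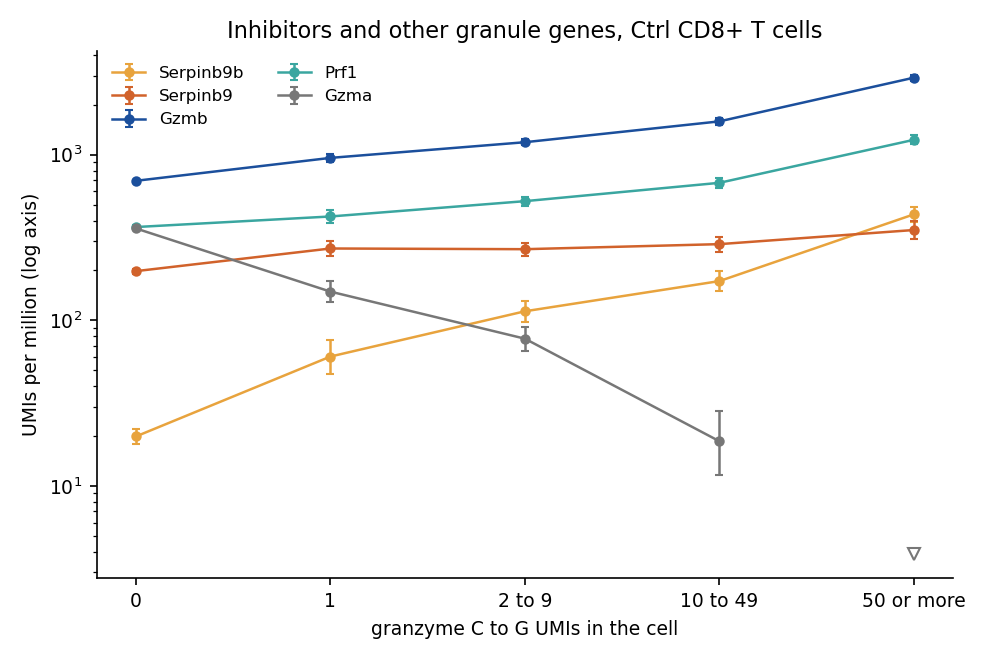
CPM (vertical, log axis) of Serpinb9b, Serpinb9, Gzmb, Prf1 and Gzma in Ctrl CD8+ T cells grouped by the number of granzyme C to G UMIs in the cell (horizontal), with exact 95% Poisson intervals. Serpinb9b climbs from 19.9 to 436 CPM and Gzma drops from 358 CPM to 0 UMIs, drawn as an open triangle at its upper limit of 3.88 CPM.

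The share of cells with 1 receptor segment also differed between carriers and other T cells. Trbv15, a variable segment of the T cell receptor beta chain, had a UMI in 81 of 305 Ctrl carriers (26.6% [21.7, 31.9]) and in 287 of the 2635 other T cells (10.9% [9.73, 12.1]). Among cells with a UMI of any Trbv segment it was 81 of 161 (50.3% [42.3, 58.3]) and 287 of 947 (30.3%). Seen from the other side, 81 of 368 Trbv15 cells (22.0% [17.9, 26.6]) and 224 of 2572 cells without it (8.71% [7.65, 9.87]) were carriers.

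Trbv15 itself varied over the sub-clusters of Ctrl, from 1 of 171 CD4+ T cells (0.585%), 1 of 74 Treg (1.35%) and 5.91% of CD8+ effector cells to 11.8% of CD8+ exhausted, 17.1% of unnamed and 19.7% of CD8+ cycling cells, so that the other T cells include sub-clusters with few carriers and little Trbv15. Among CD8+ T cells alone it was in 81 of 287 carriers (28.2% [23.1, 33.8]) and 275 of 2182 others (12.6% [11.2, 14.1]). Within CD8+ cycling cells it was in 42 of 125 carriers (33.6% [25.4, 42.6]) and 99 of 591 others (16.8% [13.83, 20.01]). The intervals overlapped within CD8+ exhausted cells (15.9% [8.72, 25.6] and 11.3% [9.11, 13.9]) and within the unnamed sub-cluster (24.4% [15.3, 35.4] and 15.6% [12.1, 19.6]).

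Trbv15 cells held 28.9% of the granzyme C to G UMIs of Ctrl T cells. In KD, 0 of 9 carriers and 16 of 427 other T cells with any Trbv UMI (3.75%) held Trbv15. The 3′ reads give a segment and no full receptor, so cells that share it need not share a receptor, and 224 of the 305 carriers held no Trbv15 UMI. Without Trbv15 cells the log2 ratio of the sum between the libraries was -2.86. The next segment, Trbv3, was in 12.5% of carriers and 8.77% of the others.

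By the fixed rule, the genes with the most alike pattern were found over 15 profiles, each a T cell sub-cluster with at least 30 cells in a library, from log2 CPM of 9374 genes. For the granzyme C to G sum they were Ndufb1 (r 0.90), Ywhaz (0.89), Praf2 (0.89), Uqcc2 (0.88) and Vma21 (0.86). For Serpinb9 they were Lyst (0.95), Sh2d2a (0.95), Arsb (0.94), Smim29 (0.93) and Nkg7 (0.92). For Serpinb9b they were Septin11 (0.91), Myl12a (0.90), Ndufa1 (0.89), Tmsb4x (0.89) and Lat2 (0.88). The profiles of 1 library share its depth and free RNA, and the best of 9374 values is high by selection, so no more than likeness is read from these.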

How the data were processed

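CD45+ cells of liver metastases were measured in 2 droplet 3′ libraries, Ctrl and KD, grouped by the hairpin in the labels, with 1 library per group. The deposited values are UMI counts per feature and barcode, not normalized, and the labels' processing notes name Cell Ranger 7.1.0 and GRCm39. Each barcode held at least 500 UMIs. The members, gene lists and rules were chosen with earlier results of these data known.

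The cell filter followed the study's methods: barcodes under 200 genes, over 10% mitochondrial UMIs, over 30000 UMIs or over 6000 genes were dropped, and 19999 of 21359 remained. These upper limits were the treatment of doublets, and Scrublet (scanpy 1.11.5) marks were used as an alternative and as a check. Counts were log-normalized and clustered in Seurat 5.3.0 (R 4.3.3) with 2000 variable genes, the members left out, 20 principal components and resolution 0.5, on a fixed OpenBLAS kernel. T cells were clustered again in the same way. Clusters were named from marker lists when 3 markers were at least 2-fold (log2 0.5 within T cells) above the other cells in 10% of cells, unless another class had more of its genes than theirs among the 10 leading ones. A cluster whose cells had a median UMI count under 33.3% of their library median also stayed unnamed. This held only if none of its 10 leading genes was a marker of the name.

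UMIs were summed per class, sub-cluster or set of cells and divided by the total UMIs (CPM). Intervals are exact Poisson for levels, Clopper-Pearson for shares and conditional binomial for log2 ratios (scipy 1.17.1), at 95%, and cover counting error only. Interval coverage was tested on simulated independent Poisson counts. Such counts lack the clumping of granzyme UMIs in few cells, so the check says nothing about spread from that clumping. Cells are not replicates, so no test was made and no p-value is given. A count of 0 was given an upper limit of 3 UMIs or cells. For thinned values each cell was drawn down to 1500 UMIs, shallower cells left out. At-least-2-fold calls used CPM plus 0.5. Named genes were the members, the lists given in the text, and the 10 highest and 5 lowest genes of carriers over other Ctrl CD8+ T cells with at least 50 UMIs and presence in 25% of carriers (of the others for the lowest), leaving out members, receptor segments, ribosomal, mitochondrial, sex-linked and unnamed genes. Alternatives were the stricter cell filter (at least 500 genes, at most 5% mitochondrial UMIs), doublet marks, resolution 1.0, T cells taken by CD3 UMIs, members kept among variable genes, TMM scaling of the class sums (edgeR 4.0.16), thinning, leading cells left out, CD8+ T cells alone and other carrier limits. Chosen after seeing the data were the values without the leading cell for each member, by parts of the NK-marker cluster, thinned by granzyme UMIs, and for Trbv15 within sub-clusters.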

Additional observations from a re-analysis of the deposited data

Results flagged for a closer look

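Granzyme C to G molecules also lay in barcodes that the cell filter left out and that no comparison used. In Ctrl, the 602 barcodes left out held 771 of these UMIs, in 32 barcodes, beside 10166 in the kept cells of all classes. Of the 771, 702 lay in 12 barcodes that had passed the upper limit of UMIs or genes, and the highest barcode held 305. In KD, the 758 barcodes left out held 10, in 4 barcodes. Whether the high barcodes were doublets or large single cells was not tested.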

How the results depend on the processing

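Over 73 alternative values, 50 stayed within the counting interval or, for counts, within 1.5 times, and 23 moved beyond it. None of the log2 ratios among them changed sign. The shares and counts among them have no direction that could change. The log2 ratio of the granzyme C to G sum in T cells (-3.11) was -3.29 at resolution 1.0, -3.28 with T cells by CD3 UMIs, -4.10 after thinning to 1500 UMIs, -6.12 without the 10 leading cells per library and -2.81 in CD8+ T cells alone. Alternatives chosen after seeing the data gave -2.86 without Trbv15 cells, -4.25 without the leading cell per library and -3.35 with T cells by CD3 UMIs and no upper limits. Serpinb9 (-0.22) was -0.34 at resolution 1.0, -0.32 by CD3 UMIs, -0.0054 in CD8+ T cells alone and, without upper limits, -0.34. In CD8+ T cells alone its interval, [-0.09, 0.08], included 0. Serpinb9b (-1.88) was -1.60 after thinning, -2.85 without the 10 leading cells and -1.60 without Trbv15 cells. The share of T cells with a granzyme C to G UMI in Ctrl (14.7%) was 7.91% thinned, 10.4% at 2 or more UMIs and 12.7% without Trbv15 cells, and in KD (2.29%) it was 1.06% thinned and 1.38% at 2 or more. The number of KD cells holding 50% of the UMIs (1) was 3 after thinning, and the Ctrl share of cells with 2 or more of the 5 genes (52.4%) was 47.2% after thinning. The number of genes at least 2-fold higher in carriers (80) was 140 with at least 20 UMIs in both sets together, a limit that tests more genes. The causes were not tested, beyond what leaving out cells shows by construction. TMM scaling moved the class sums by a factor of 1.0076. No paired analysis was possible because there was 1 library per group, and for the same reason no library could be left out. Free RNA and depth limit what a single UMI in a cell shows.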
